A study of Homo sapiens with 2 samples.

Results

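RBCK1, RNF31, TRAF2, TRAF3, TRAF4, TRAF5 and TRAF6 encode ubiquitin ligases and adaptors of inflammatory signalling, and their IRF1 binding summits are described here. The 7 genes were looked up by name in the nearest-gene column of a list of 1986 IRF1 summits, at any distance from the gene. The list comes from chromatin immunoprecipitation and sequencing (ChIP-seq) of NB4 cells, a human acute promyelocytic leukemia line. The design has 2 libraries, 1 from cells given all-trans retinoic acid (ATRA) for 4 hours and 1 from control cells given the solvent DMSO. The deposited list is that of the ATRA library. Control values were not analysed here, so each value describes 1 library, with no replicate error and no measure of a gain or loss under ATRA. A summit is the position of 1 base, with a peak score given by the authors on a scale that the sources used here do not state. How many reads support each summit is not known.

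Of the 7 genes, 4 had a summit, with 1 each, which makes 4 of the 1986 summits. A single summit was usual: 88.9% of the 1275 protein-coding genes with a summit had 1. RBCK1 had the summit with rank 8 of the whole list. TRAF2, TRAF5 and TRAF4 followed far lower, and RNF31, TRAF3 and TRAF6 had no row. For scale, 6.38% of 19970 protein-coding genes were named as nearest gene at any distance. The 7 genes were chosen by this list itself, its nearest-gene names and peak scores being in view, so nothing is read from the difference. Scores and ranks are therefore given as descriptions, with no test.

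RBCK1, also called HOIL-1, and RNF31, also called HOIP, form with SHARPIN the linear ubiquitin chain assembly complex. RNF31 is its catalytic ligase and joins ubiquitin molecules head to tail on components of activated receptor complexes, which recruits the kinases that activate NF-κB. Several TRAF proteins bind the tails of TNF family receptors, TRAF6 is also recruited by adaptors of interleukin-1 and Toll-like receptors, and they pass the signal on, partly as ubiquitin ligases. IRF1 is a transcription factor induced by interferon that binds the interferon-stimulated response element. Here the element means 2 GAAA blocks with any 2 bases between them, on either strand.

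The stretches that carry the 2 strongest summits at these genes each held this element beside the summit. They are shown because they place the element to the base, and capitals mark it. The sequences are RefSeq promoter sequences of build GRCh38.p14, read 5′ to 3′ on the strand of the gene named. The RBCK1 stretch is chr20:408285-408314 on the plus strand, with the summit at base 11. The PSME2 stretch is chr14:24146611-24146640 on the minus strand, with the summit at base 25. The RNF31 stretch is the 250 bases before the RNF31 transcription start site (TSS), chr14:24146625-24146874 on the plus strand, and it begins 9 bases beyond the same summit.
RBCK1: cttccggggccgccacTTTCACTTTCtctt
PSME2: gtGAAAGCGAAAgcccgggcgactagccgg
RNF31: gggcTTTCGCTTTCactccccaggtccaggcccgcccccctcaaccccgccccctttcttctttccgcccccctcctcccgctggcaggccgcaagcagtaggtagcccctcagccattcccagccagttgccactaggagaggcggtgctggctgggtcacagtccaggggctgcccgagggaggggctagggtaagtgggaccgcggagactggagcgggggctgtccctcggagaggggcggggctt

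The RBCK1 summit lay at chromosome 20 position 408295 and had a score of 253, against a median of 25.2 over all summits. It outscored 99.6% of the other summits, and 98.9% of the other summits within 1 kb of a TSS. The authors' annotation placed it 230 bp downstream of a TSS, in the 5′ UTR of exon 1 of 11. The RefSeq promoter table starts RBCK1 (chromosome 20, 408299 to 432139, 23841 bp) at another base, 4 bp downstream of the summit. By that start, the element occupied bases 2 to 11 downstream of the TSS (408301 to 408310), and its nearer edge was 6 bp from the summit. The next summit on the chromosome lay 1058595 bp from that of RBCK1, at NSFL1C (17.6). For the TRAF2, TRAF5 and TRAF4 summits this distance was 117682, 280756 and 598648 bp. The usual spacing over the whole list was not computed.

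Ordered by score, RBCK1 was number 7 of 435 summits that lay within 1 kb of a protein-coding TSS. ERAP1, an aminopeptidase that trims peptides for MHC class I, and PARP12, an antiviral ADP-ribosyltransferase, came just above it. Their scores were 44.0 and 33.2 higher than that of RBCK1. ISG15, a ubiquitin-like modifier, and PARP9, a partner of the ubiquitin ligase DTX3L, came just below, with scores that differed from that of RBCK1 by -2.60 and -13.4. These differences compare summits of 1 library and have no error.

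**Figure D1:**
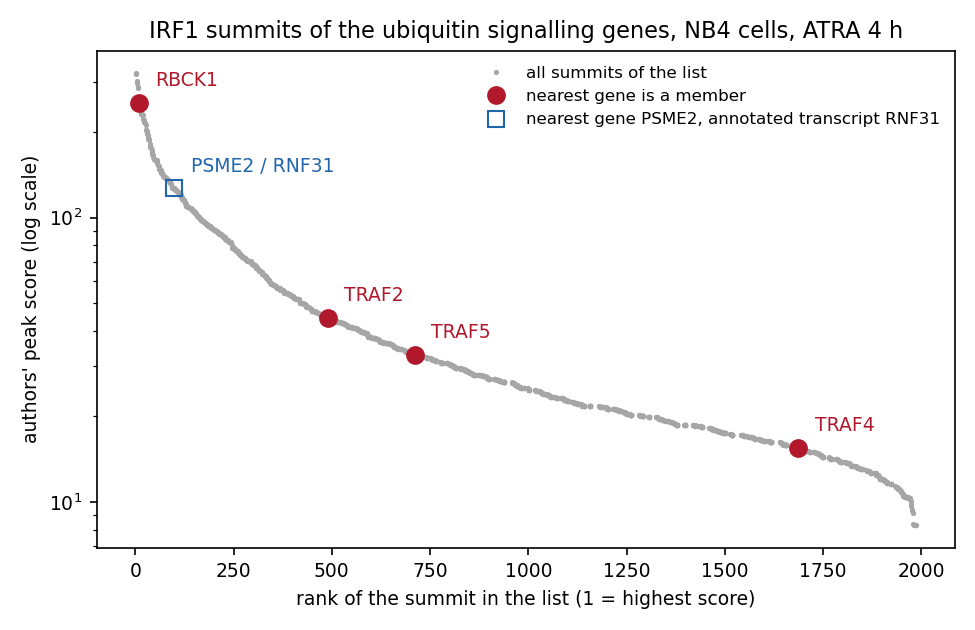
The authors' peak score of each of the 1986 summits (log axis) is plotted against its rank, with the summits of RBCK1, TRAF2, TRAF5 and TRAF4 as red circles and the PSME2 summit, whose annotated transcript is that of RNF31, as a blue square. RBCK1 sits at rank 8 on the steep left end of the curve, PSME2 at rank 98, and the 3 TRAF summits lie on its flat part between ranks 489 and 1686.

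RNF31, the catalytic partner of RBCK1, was the nearest gene of no summit, yet a strong summit lay 259 bp upstream of its TSS. This summit, at chromosome 14 position 24146616, had a score of 127, rank 98, and outscored 95.1% of the others. The authors' table gives PSME2 as its nearest gene, 30 bp away, and a transcript of RNF31 in the promoter annotation of the same row. PSME2, which encodes the beta subunit of a proteasome activator induced by interferon, and RNF31 are transcribed away from each other, and 264 bases separate their spans. The summit was 6 bp from the RefSeq TSS of PSME2. The element lay 13 bp from the summit, between the 2 genes, at bases -246 to -237 from the TSS of RNF31 and -28 to -19 from that of PSME2. Which of the 2 genes a summit in this gap belongs to cannot be told apart by position.

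The same stretch of chromosome 14 held the highest score of the list. The PSME1 summit (321, rank 1) lay 10425 bp from the PSME2 summit and at -10684 bp from the 5′ end of RNF31 (chromosome 14, 24146875 to 24160655). PSME1 encodes the alpha subunit of the same activator. On the other side, IRF9, the DNA-binding subunit of the interferon-activated complex ISGF3, starts 610 bp beyond the end of RNF31 and was the nearest gene of no summit. No summit lay within the span of RNF31.

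**Figure D2:**
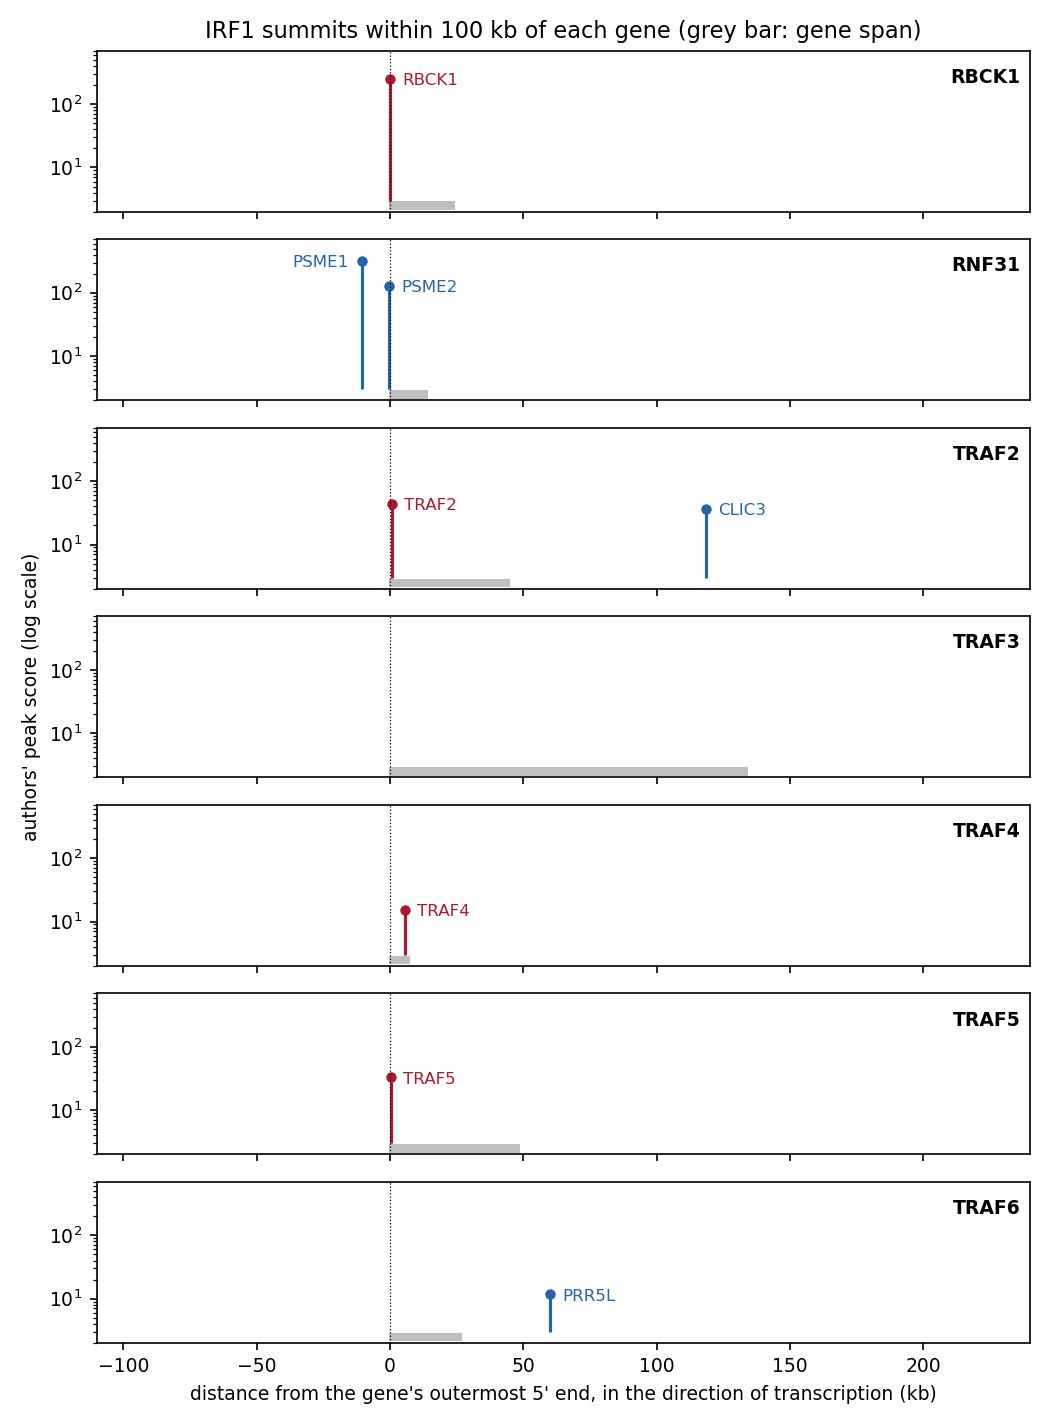
Each panel shows 1 of the 7 genes, with the distance from its outermost 5′ end in the direction of transcription on the horizontal axis (kb) and the authors' peak score on the vertical axis (log scale). The grey bar is the gene span, red stems are summits whose nearest gene is that gene and blue stems are summits within 100 kb of the span that carry another gene's name. RBCK1 and RNF31 have a summit with a score above 100 at their 5′ end, the TRAF2 and TRAF5 summits at theirs are lower, TRAF4 has one near its 3′ end, and TRAF3 has none.

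Of the 5 TRAF genes, 3 had a summit, beside 6.38% of protein-coding genes named as nearest gene at any distance. The genes were chosen by this list, so nothing is read from the difference. The scores were modest. TRAF2, a ligase and adaptor of TNF receptors that recruits the cellular inhibitors of apoptosis, had the highest, 44.4 (rank 489), above 75.4% of the other summits. It lay at chromosome 9 position 136882648, classed by the authors as intergenic, at -3865 bp from the TSS. In the GRCh38.p14 gene table it falls inside the TRAF2 span (136881958 to 136926607), 690 bp from the 5′ end, so the newer gene model reaches upstream of it. The next summit on the chromosome lay 117682 bp away and was named for CLIC3 (37.1).

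TRAF5, a close relative of TRAF2 that acts with it at receptors such as CD40, had a summit of 33.0 (rank 711, above 64.2% of the others). It lay at chromosome 1 position 211326991, inside intron 1 of 10 and in a CpG island by the detailed annotation. It was 185 bp downstream of the TSS that the authors used and 158 bp downstream of the nearest of 3 RefSeq starts. TRAF5 (211326635 to 211374946) had no other summit within 100 kb. The summit fell 109 bases beyond the nearest RefSeq promoter window, so the sequence under it was not read.

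TRAF4, a family member first described as a gene overexpressed in breast carcinoma, had the lowest score of the 4, 15.5 (rank 1686), above 15.1% of the other summits. Unlike the others it was not near the 5′ end of its gene span. Measured from the TSS, the TRAF2 summit was beyond 1 kb too, at -3865 bp. The TRAF4 summit lay at chromosome 17 position 28749564, in exon 7 of 7. This was 5559 bp downstream of the TSS and 1392 bp before the end of the gene (28744011 to 28750956). It was 1 of 30 summits that the authors class as exon, whose median score was 25.3.

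TRAF3, which restrains the non-canonical NF-κB pathway and takes part in the induction of type I interferon, had no summit in or near it. The closest summit to any part of its span (chromosome 14, 102777449 to 102911500) was 183 kb away, near EXOC3L4, and the closest to its TSS was 297 kb away, near ANKRD9 (28.0). At 43.1% of 15811 protein-coding genes with a RefSeq promoter a summit lay at least as near the TSS. TRAF6, the ligase of the interleukin-1 and Toll-like receptor pathways, had no summit in its span either. The summit closest to TRAF6 (chromosome 11, 36483769 to 36510272) was an intronic one of the neighbouring PRR5L, 33.6 kb from the span, with a score of 11.7 and rank 1913. It lay 60.1 kb from the TSS of TRAF6, and 13.5% of the same 15811 genes had a summit at least as near. A gene without a summit may still be bound, since neither the threshold nor the background of the calling is known.

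RBCK1, RNF31 and TRAF5 had the summits closest to a TSS. With any summit counted, whatever gene it was named for, these 3 had one within 1 kb of a RefSeq TSS, against 2.56% of the 15811 genes with a promoter entry. By name, RBCK1 and TRAF5 had a summit within 1 kb of the TSS that the authors used, beside 2.03% of protein-coding genes. All 4 named genes had theirs within 10 kb, beside 3.37% of protein-coding genes. Among the 993 summits with the highest scores, RBCK1, TRAF2 and TRAF5 were named, beside 3.54%. With gene spans extended by 10 kb, the same 4 genes and RNF31 held a summit, beside 7.46%. The median score of the 4 summits was 38.7, and 3 of the 4 exceeded the median of all summits, 25.2.

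The response element was found in the promoters of RBCK1 and RNF31 and in no RefSeq promoter window of a TRAF gene. A window holds 250 bases before and 50 after a TSS, and the 7 genes had 10 windows, of which 2 held the element and 1 a summit. Among all 35116 promoter windows 3.57% held it, and among the 302 windows that held a summit 38.7% did. The shorter core AANNGAAA, where N is any base and which the element contains, was in none of the 7 windows of TRAF2 to TRAF6. It was in a window of TRAF1, which is not among the 7 genes. Of all windows 22.8% held the core, so a count of 0 in these 7 windows, 3 of them of TRAF5, says little. The TRAF2, TRAF4 and TRAF5 summits lie outside these windows, so the matches say nothing about the sequence at those summits.

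At RBCK1 and between PSME2 and RNF31, the distance from summit to element was on or within the quartiles for promoter summits with the element. Of 255 summits inside a promoter window, 98 had the element in that window, at a median distance of 15.5 bp between summit and element centre (quartiles 10.5 and 26.0). At RBCK1 the distance was 10.5 bp and in the gap between PSME2 and RNF31 it was 17.5 bp. The 98 summits had a median score of 49.2, against 19.6 for the 157 without the element. The window limits how far apart the 2 can be.

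**Figure D3:**
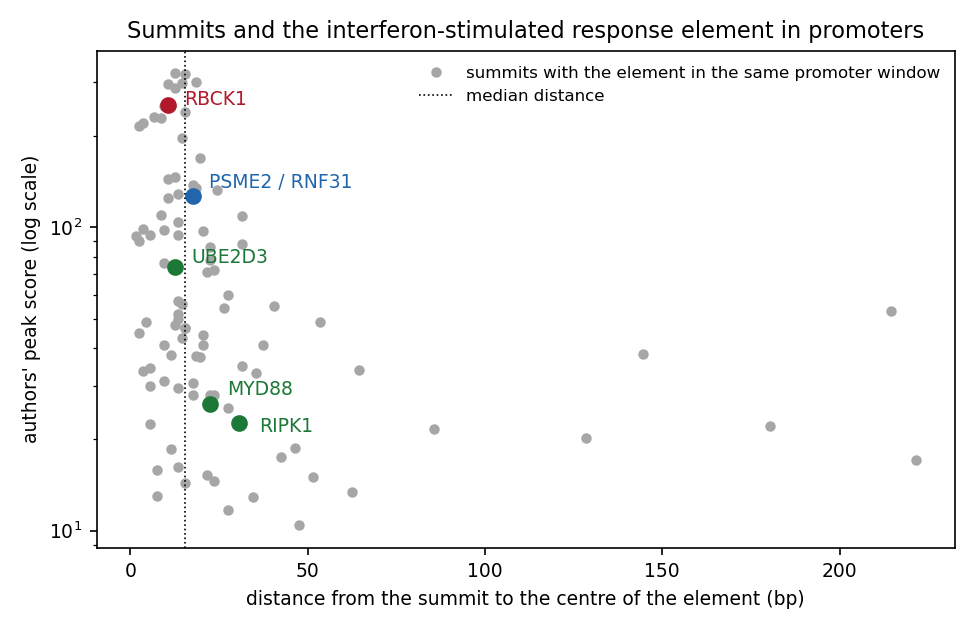
The authors' peak score (log axis) is plotted against the distance in bp from the summit to the centre of the nearest response element, for the 98 summits with that element in the same promoter window. The quartiles are 10.5 and 26.0 bp. RBCK1 (red, 10.5 bp) lies on the lower one, and the summit between PSME2 and RNF31 (blue, 17.5 bp) lies between them. The stronger UBE2D3 summit (12.5 bp) and the MYD88 summit (22.5 bp), both green, lie there too. The weaker RIPK1 summit (score 22.6, green, 30.5 bp) lies above the quartiles. The dotted line is the median of 15.5 bp.

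The wider pathway was counted in 9 lists of 87 other genes. Of these, 12 were named as nearest gene (13.8%, against 6.38% of protein-coding genes), and 10 were within 10 kb of the TSS (11.5%, against 3.37%). The lists were written with earlier results for some of these genes known, so the shares are descriptions. Their 14 summits had a median score of 25.5, close to the 25.2 of the whole list, and none reached 100. Distances in these lists are those of the authors unless RefSeq is named.

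Neither the list of further TRAF family and TRAF-binding proteins (0 of 9) nor that of NF-κB subunits and inhibitors (0 of 10) held a gene with a summit. Over all protein-coding genes 6.38% were named as nearest gene, so a count of 0 in lists this short says little. TRAF1, the family member without a RING domain, was 192 kb from the nearest summit. SHARPIN, the third subunit of the linear ubiquitin complex, was 112 kb from the nearest one, which belonged to PARP10. The enzymes that take ubiquitin chains apart in this pathway were named for no summit, like most protein-coding genes. Distances from gene spans are given here without a share over all genes, which was not computed. OTULIN, specific for linear chains, was 406 kb from a summit, CYLD 43.9 kb (a summit of NOD2) and TNFAIP3, also called A20, 1397 kb. In the list of linear ubiquitin partners, 1 of 9 genes had a row, the autophagy adaptor TAX1BP1, with a summit of 24.8 at 96591 bp from its TSS.

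Among enzymes, 2 of 6 ubiquitin conjugating enzymes had a summit. Beside the 6.38% of protein-coding genes named as nearest gene, counts in lists this short say little. UBE2D3, which serves many RING ligases, had scores of 74.0 and 13.0, both within 200 bp of a TSS. UBE2L3, the conjugating enzyme that feeds linear chain synthesis, had 29.7 in an intron 3513 bp from the TSS that the authors used. The same summit lay 21796 bp from the RefSeq TSS of UBE2L3, beyond the limit of 10 kb. Of 12 RING-between-RING ligases, the class to which RBCK1 and RNF31 belong, RNF19B had a summit (62.7, 2385 bp from the TSS). Of 3 inhibitor of apoptosis ligases, BIRC3, which binds TRAF2, had one (18.7, at -4579 bp from the TSS).

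Of 11 receptor adaptors and kinases, 3 had a row. The lists given here are short too, and 6.38% of protein-coding genes were named as nearest gene. RIPK1, the kinase that carries linear chains at the TNF receptor, had summits of 81.7 and 22.6. The authors placed them at -7971 and -8539 bp from the TSS, whereas they lay at 359 and -93 bp from RefSeq starts. MYD88, the adaptor of Toll-like receptors, had 26.2 at -34 bp from its RefSeq TSS. RIPK2, the kinase of NOD receptors, had 27.7 inside intron 7 of 10, in a DNA transposon. Of 14 TNF receptors, TNFRSF14 had a summit of 83.4 at 169 bp from the TSS and CD40, which signals through TRAF proteins, one of 17.1 at 1155 bp. The authors annotated the TNFRSF14 summit to exon 2 of 7 of a non-coding transcript. CD27, a TNF receptor of lymphocytes, had no row, but a stronger summit (147, rank 64) named for TAPBPL lay within 10 kb of its span, at 8212 bp from its RefSeq TSS, which made 13 of the 87 genes with spans extended by 10 kb (7.46% of protein-coding genes). Of 13 genes of the TAK1, IKK and TBK1 kinase complexes, AZI2, a TBK1 adaptor, had 21.8 and IKBKG, the ubiquitin-binding subunit of IKK, had 12.1. By the detailed annotation the IKBKG summit lay in a repeat of the LINE class. IKBKG has a near-identical pseudogene copy, and the handling of reads that match both is not known.

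**Figure D4:**
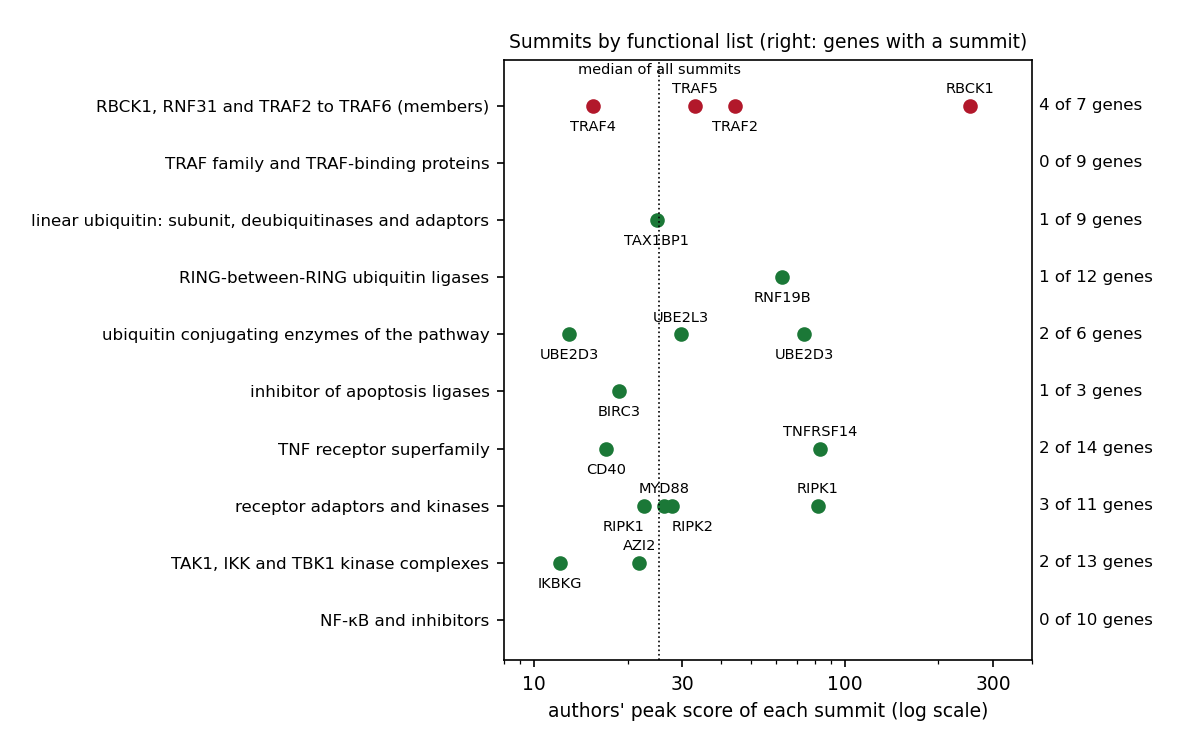
Each point is 1 summit, placed by the authors' peak score (log axis) and by the functional list of its nearest gene, with the 7 described genes on top in red and 9 lists of the same pathway in green. The numbers at the right give how many genes of each list had a summit, and the dotted line is the median of all summits. RBCK1 at 253 lies to the right of every summit named for a pathway gene, of which that of TNFRSF14 at 83.4 is the highest.

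Of 71 pathway genes with a RefSeq promoter, 5 held the element, and 3 of these, UBE2D3, RIPK1 and MYD88, also held a summit in the same window. Over all protein-coding genes with such windows, 4.16% held the element in any window, and 13.1% of those also had a summit in it. The pathway counts are small and were not tested against these shares. TNFRSF1B, a TNF receptor that binds TRAF2, and RELA, the main activating subunit of NF-κB, held the element with no summit within 100 kb. The stretches of 30 bases around the element are shown for the 3 genes with both, on the strand of each gene (GRCh38.p14), to set beside those of RBCK1 and PSME2. They are chr4:102827019-102827048 (minus strand), chr6:3068301-3068330 (plus strand) and chr3:38138590-38138619 (plus strand).
UBE2D3: cctttggacaGAAACCGAAAgcagcccggc
RIPK1: cgcgcggaggTTTCGGTTTCctcttttacg
MYD88: gcgcttctcgGAAAGCGAAAgccggcgggg
Read on the strand that carries GAAA, the element was GAAAGTGAAA at RBCK1, GAAAGCGAAA at PSME2 and MYD88, and GAAACCGAAA at UBE2D3 and RIPK1. The element centre was 12.5 bp from the summit at UBE2D3, 30.5 bp at RIPK1 and 22.5 bp at MYD88. At RIPK1 this was the weaker summit (22.6), and the stronger one (81.7) lay outside the RIPK1 promoter windows. At UBE2D3 it was the stronger summit (74.0).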

How the data were processed

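IRF1 ChIP-seq of NB4 cells gave 2 libraries, 1 for ATRA and 1 for control. Per the file headers, a list of summits of the ATRA library was annotated with HOMER annotatePeaks.pl against hg38, and the peak score deposited with each summit comes from the authors, on an unstated scale. The other deposited measure is the signed distance to the TSS in bp. Bowtie2 2.2.9 and MACS 1.4.2 stand in the submitters' processing notes. What served as background, which threshold was set and how duplicates were treated is not given in the sources used here. No column of per-sample values was left unmapped.

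Ranks, shares and motif matches were computed with Python 3.11.15 and pandas 2.3.3, and the motif search was tested on simulated data. Entrez identifiers were looked up in a GRCh38.p14 table of RefSeq genes, which held the nearest gene of 1977 of 1986 summits. The background was all 19970 protein-coding genes with coordinates, chromosome Y left out. Promoter windows of 300 bases came from RefSeq, and 71 of 87 pathway genes and all 7 described genes matched. With 1 library no test across samples was possible and none was run. The 7 genes, the pathway lists and the motif were chosen with earlier results of these data known. Named were the 7 genes, pathway genes with a summit, SHARPIN, TRAF1, OTULIN, CYLD and TNFAIP3, genes of summits within 100 kb, and the 2 genes on each side of RBCK1 in score. PSME1, PSME2, IRF9, TNFRSF1B, RELA, CD27 and genes of the nearest summits were added after their values were seen. Alternatives were a TSS limit of 10 kb or 1 kb, the 993 highest summits, spans extended by 10 kb, merging under 200 bp, omission of a dense block on chromosome 21, and other motif settings.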

Additional observations from a re-analysis of the deposited data

How the results depend on the processing

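Leaving out a replicate was not possible. No paired analysis was possible because there was 1 library on each side. Of the 7 genes 4 had a summit, and 2 did (RBCK1 and TRAF5, 2 summits) within 1 kb of the authors' TSS. With extended spans the count was 5, with RNF31 added, and it was 3 with any summit within 1 kb of a RefSeq TSS, a setting chosen after seeing the data. Among the 993 highest summits it was 3, without TRAF4. The 12 pathway genes became 5 within 1 kb, 7 among the 993 highest summits and 6 within 1 kb of a RefSeq TSS, and with extended spans they were 13. The limits on distance from the authors' TSS and on score admit fewer summits by construction. The RefSeq setting counts summits of any gene name, so it is not a subset of the main count. It added RNF31 and left out TRAF2 and TRAF4. Its share over all genes was 2.56% of the 15811 with a promoter entry. The share of all protein-coding genes was 3.37% within 10 kb, 2.03% within 1 kb, 3.54% for the 993 highest summits and 7.46% with extended spans, against 6.38%. Against summits within 1 kb of a TSS only, the share outscored was 98.9% for RBCK1, 70.3% for TRAF2 and 59.1% for TRAF5. Without the chromosome 21 block it was 13.6% for TRAF4. With the element limited to the 200 bases nearest the TSS, 1 gene, RBCK1, held it, since the RNF31 element lies farther upstream. Merging close summits changed none of the counts of the 7 genes. Depth per summit is unknown, so a missing summit does not show missing binding.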
